A study of Nothobranchius furzeri with 8 samples.

Results

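The microRNA (miRNA) families mir-29 and mir-83 were followed with age in the brain of the turquoise killifish, Nothobranchius furzeri, an annual fish used as a short-lived vertebrate model of ageing. They are 2 of the 324 features in the table of small RNA counts. Both were taken by name, with earlier results of these data known. All libraries came from brain of males of MZM-04/10p, a wild-derived strain, with no treatment given in the labels. The 6-week group held 4 libraries and the 26-week group held 4. The older libraries are titled with 22, whereas their age label and the design say 26 weeks, and the label was used. The labels do not state that each library is a different fish, so each p-value measures the spread between these libraries, which may be partly technical.

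A mature miRNA guides an Argonaute protein to messenger RNAs that pair with its seed, bases 2 to 8 of the miRNA, and lowers their translation and stability. Families with the same seed can share targets even where the rest of the sequence differs. In vertebrates the miR-29 family acts on transcripts of collagens and other extracellular matrix proteins, of DNA methyltransferases and TET enzymes, and, in maturing mouse neurons, of BH3-only proteins that start apoptosis. It is also known to increase with age in the brain of this fish, where it acts on the iron-responsive factor IREB2, which controls iron uptake. The name mir-83 belongs to a nematode family whose seed is that of miR-29, and so does mir-49, another nematode family name in the table. No role of either is known to apply in killifish. The sequences behind these killifish features were not analysed here, so the shared seed is taken from the nematode families and was not checked.

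Library totals ran from 2992917 to 4151620 counts at 6 weeks and from 3347810 to 5715409 at 26 weeks, so that the older group was on average the more deeply sequenced. Levels are in CPM, the count of a feature per 1000000 counts of its library, with library sizes scaled by the trimmed mean of M-values (TMM). The TMM factors were 1.02 to 1.16 at 6 weeks. They were 1.11 in the 26-week library I and 0.861 to 0.882 in the 26-week libraries II to IV. A factor below 1 raises the CPM of its library. Age was tested by the quasi-likelihood F test of edgeR, and p-values were adjusted by Benjamini and Hochberg's method over the 212 features tested, both members included, at a threshold of 0.05. Of these, 10.4% were higher and 3.77% were lower at 26 weeks. The tissue label was met by its markers. The 6 neuronal family names matched 7 features, mir-132b being the additional one, and together these held 157066 to 180077 CPM in every library.

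The family mir-29 rose about 3-fold between the ages, whereas no change of mir-83 was detected. In the 6-week libraries I to IV, mir-29 stood at 732, 634, 609.5 and 597 CPM. In the 26-week libraries I to IV it stood at 2286, 1756, 1933 and 2338 CPM. Each older library lay above each younger one, and the lowest at 26 weeks was 2.40 times the highest at 6 weeks. The mean went from 643 ± 61.2 to 2078 ± 280.0 CPM (SD, n = 4 per age). The log2 fold change was 1.69 ± 0.15 (SE), or 3.23-fold with a 95% interval of 2.57 to 4.07 (edgeR, adjusted p = 2.14e-04). Among features tested, 21.7% had ages that did not overlap in CPM, and 14.2% did not overlap and were higher at 26 weeks.

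**Figure D1:**
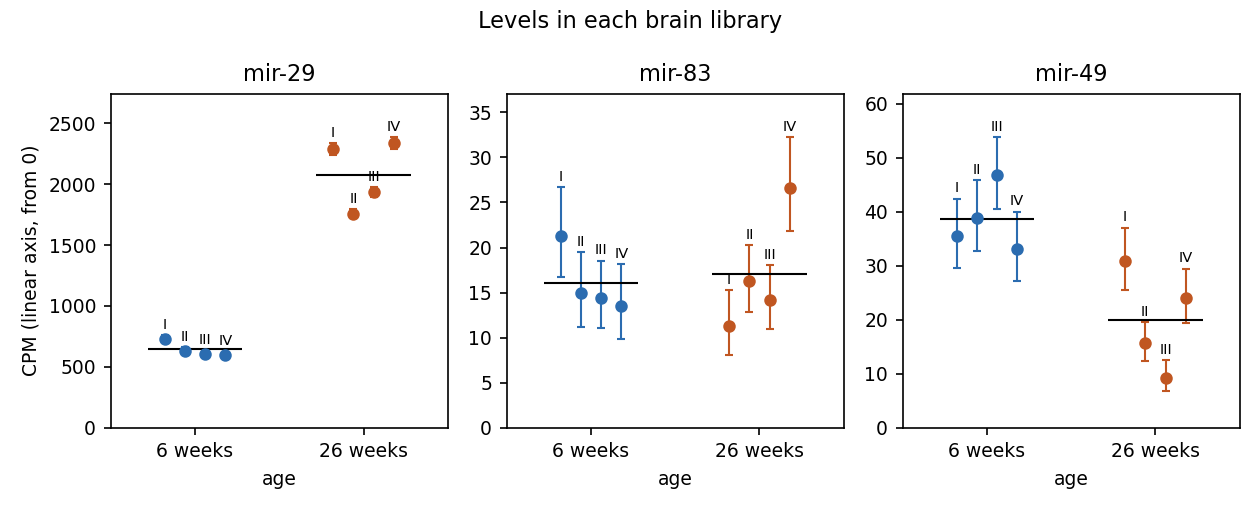
Levels of mir-29, mir-83 and mir-49 in CPM (linear axes from 0, a separate scale per panel) in each brain library by age; points are libraries labelled by number, vertical bars are exact 95% Poisson intervals of the counts, and horizontal lines are means. The libraries of mir-29 are apart by age, at 597 to 732 CPM for the younger and 1756 to 2338 CPM for the older ones, those of mir-83 overlap, and those of mir-49 lie lower at 26 weeks.

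The counts behind mir-29 were ample. They were 2549, 2251, 2577 and 1945 at 6 weeks and 8516, 8645, 9132 and 9214 at 26 weeks, in the order I to IV. Counting error alone would give a coefficient of variation near 2.07% at 6 weeks and 1.06% at 26 weeks. The observed coefficients of variation in CPM were 9.51% and 13.5%, so most of the spread lay between libraries. They were below the medians over tested features, 19.2% and 27.3%, with 44 and 27 features varying less. As a share of all counts, mir-29 went from 0.0698 ± 0.0107% to 0.195 ± 0.0451% (n = 4 per age). By mean CPM it ranked 60th of 324 features at 6 weeks and 38th at 26 weeks, although ligation bias in such libraries makes ranks between families approximate.

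The 4 differences between libraries of the same number were all rises, of 3.12-fold for I, 2.77-fold for II, 3.17-fold for III and 3.91-fold for IV. In the whole-table fit, 1 feature had a larger fitted rise than mir-29. This was mir-430, a family that clears maternal transcripts in fish embryos, which averaged 5.06 ± 0.673 CPM in the younger and 16.7 ± 7.29 CPM in the older group (n = 4 per age). Among the 94 features tested with a mean of at least 100 CPM, the rise of mir-29 ranked first in this fit. The log2 change of mir-101 was close, at 1.57 ± 0.16 (SE). Without the 26-week library I, mir-101 rose more than mir-29 (1.69 against 1.64). With the log2 of the library total as a covariate, mir-219 did (1.94 against 1.89). The median log2 change of these 94 features was 0.12, and that of all tested features was -0.06.

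**Figure D2:**
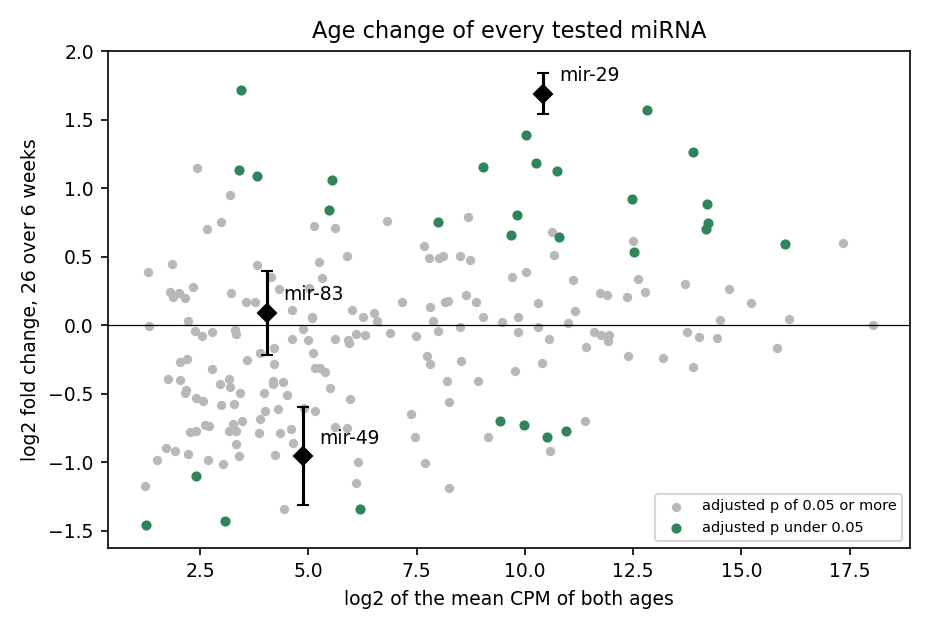
Log2 fold change with age (26 over 6 weeks, vertical) against the log2 of the mean CPM of both ages (horizontal) for the 212 tested features; green points passed an adjusted p of 0.05, grey points did not, and black diamonds with SE bars mark mir-29, mir-83 and mir-49. The diamonds stand at 1.69, 0.09 and -0.95, and of the 3 only mir-29 passed in the fit of all 8 libraries.

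The family mir-83 was scarce at both ages. Its counts were 74, 53, 61 and 44 in the 6-week libraries I to IV and 42, 80, 67 and 105 in the 26-week ones. In CPM the younger libraries held 21.3, 14.9, 14.4 and 13.5. The older libraries held 11.3, 16.2, 14.2 and 26.6 CPM, so the groups overlapped and both the lowest and the highest library were old. Means were 16.0 ± 3.53 CPM for the younger and 17.1 ± 6.69 CPM for the older group (n = 4 per age). The log2 fold change was 0.09 ± 0.31 (SE; edgeR, Benjamini-Hochberg adjusted p = 0.885). The 95% interval of the fold, 0.659 to 1.72, leaves room for moderate changes either way and lies below that of mir-29. The sign of this small change turned with total counts (-0.17), with upper-quartile factors (-0.10) and without the 26-week library IV (-0.15), none past the threshold.

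Counts this low limit what can be seen of mir-83. For the 26-week library I the exact 95% Poisson interval was 8.12 to 15.2 CPM, and for the 26-week library IV it was 21.8 to 32.2 CPM. These intervals cover counting error only, since reads without molecular identifiers are not independent molecules. Counting error alone would give a coefficient of variation near 13.1% at 6 weeks and 11.7% at 26 weeks, against observed values of 22.0% and 39.1%. Both lay above the medians over tested features, 19.2% and 27.3%, with 119 and 147 of 212 features varying less. Libraries of the same number differed by 0.531-fold for I, 1.09-fold for II, 0.983-fold for III and 1.97-fold for IV.

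The balance of the pair therefore shifted to mir-29. Of the counts of both, mir-83 made up 2.82%, 2.30%, 2.31% and 2.21% in the 6-week libraries I to IV. In the 26-week libraries it made up 0.491%, 0.917%, 0.728% and 1.13%, each below every younger library. The mean share went from 2.41 ± 0.277% to 0.816 ± 0.271% (n = 4 per age). Both counts come from the same library, so library size and scaling cancel in their ratio. The log2 ratio of mir-83 to mir-29 fell by 1.65, from -5.33 ± 0.16 to -6.98 ± 0.51 (SD, n = 4 per age, exact two-sided permutation p = 0.0286, the smallest that 4 against 4 allows). The age changes of both members thus differed by this test, which leaves out the pairing of libraries by number described below. Differences within library numbers gave the same -1.65, with an exact sign-flip permutation p of 0.125, the smallest that 4 pairs allow. Without both libraries numbered I the difference was -1.35 (exact permutation p = 0.1, the smallest for 3 against 3).

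**Figure D3:**
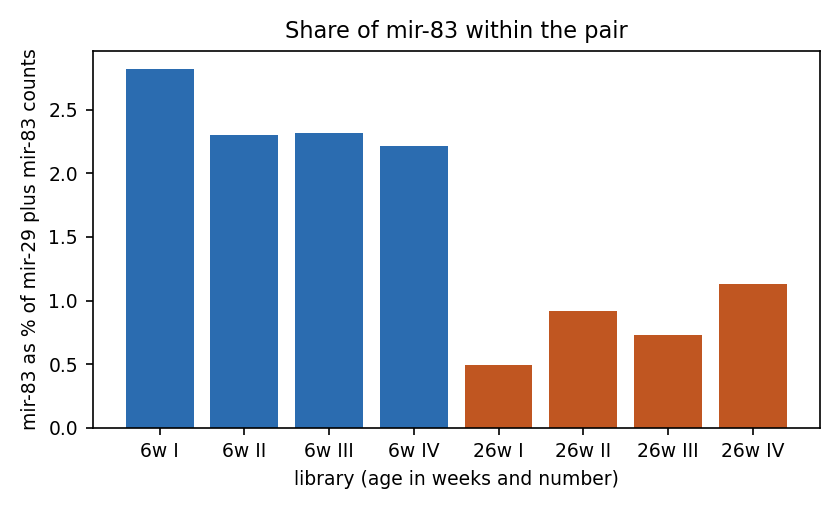
Share of mir-83 in the summed counts of mir-29 and mir-83 (percent, linear axis from 0), 1 bar per library, blue at 6 weeks and orange at 26 weeks. The younger libraries lie between 2.21% and 2.82% and the older ones between 0.491% and 1.13%.

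Because mir-83 was so scarce, the sum of both followed mir-29. It averaged 659 ± 64.7 CPM in younger and 2095 ± 282 CPM in older libraries (n = 4 per age). With the counts of both summed into 1 feature before the fit, the log2 change of that feature was 1.67 ± 0.15 (SE, edgeR, Benjamini-Hochberg adjusted p = 2.49e-04). How reads that match several features were counted is not given in the sources used here.

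A list of 6 family names, mir-29 included, taken as seed relatives of miR-29 in animals had 3 in the table. The additional one was mir-49. The seed of each name was not checked. Its libraries held 35.6, 38.9, 46.8 and 33.2 CPM at 6 weeks and 30.9, 15.6, 9.31 and 24.1 CPM in the older group, in the order I to IV. The ages did not overlap, as in 21.7% of all tested features in either direction. The older libraries were lower, from a mean of 38.6 ± 5.95 to 20.0 ± 9.45 CPM (n = 4 per age). Its log2 change of -0.95 ± 0.35 (SE) did not pass (edgeR, Benjamini-Hochberg adjusted p = 0.119 over the whole table). It passed without the 26-week library I (-1.25, adjusted p = 0.0304) and with neither library I (-1.30, adjusted p = 0.0310). These fits called 21.3% and 23.6% of all tested features, against 14.2% with all 8 libraries. The change was -0.72 (adjusted p = 0.337) without the 26-week library II and -0.62 (adjusted p = 0.259) without III. Over the alternatives the adjusted p ran from 0.0304 to 0.439 (edgeR or the alternative tests, Benjamini-Hochberg). Of the 3 family names, mir-29 was thus the one that rose.

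The features with the pattern most like that of mir-29 were found by the root mean square difference of log2 CPM over the 8 libraries, each feature centred on its own mean. This is a description, to which the difference between ages contributes most. The nearest of 211 features was mir-338, at 0.26, an oligodendrocyte family. It was followed by mir-101 at 0.32, known to act on the histone methyltransferase Ezh2, by the oligodendrocyte family mir-219 at 0.34 and by mir-451 of red blood cells at 0.38. The median over all features was 0.95, and mir-83 was 75th in this order at 0.88. Leaving out 1 library kept between 2 and 4 of these 4 among the nearest 4.

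Within an age the 4 did not follow mir-29 in every library. At 26 weeks mir-29 was highest in libraries IV and I, whereas mir-101 was lowest in I, at 7968 CPM, and highest in III, at 13093 CPM. The order of mir-219 at 26 weeks was I, IV, II and III, at 2322, 1505, 1280.1 and 953 CPM. Per 100 counts of mir-101, libraries held 17.8 ± 3.59 counts of mir-29 at 6 weeks and 20.0 ± 6.39 at 26 weeks (n = 4 per age), and the ages overlapped. Per 100 counts of mir-338 they held 7.18 ± 0.386 and 9.77 ± 1.52, from 6.75 to 7.64 at 6 weeks and from 7.85 to 11.1 at 26 weeks, with no overlap. Per 100 counts of mir-219 the values were 113.5 ± 13.8 and 148 ± 43.3, and per 100 counts of mir-451 they were 200.7 ± 28.1 and 298 ± 80.7, with overlap in both.

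**Figure D4:**
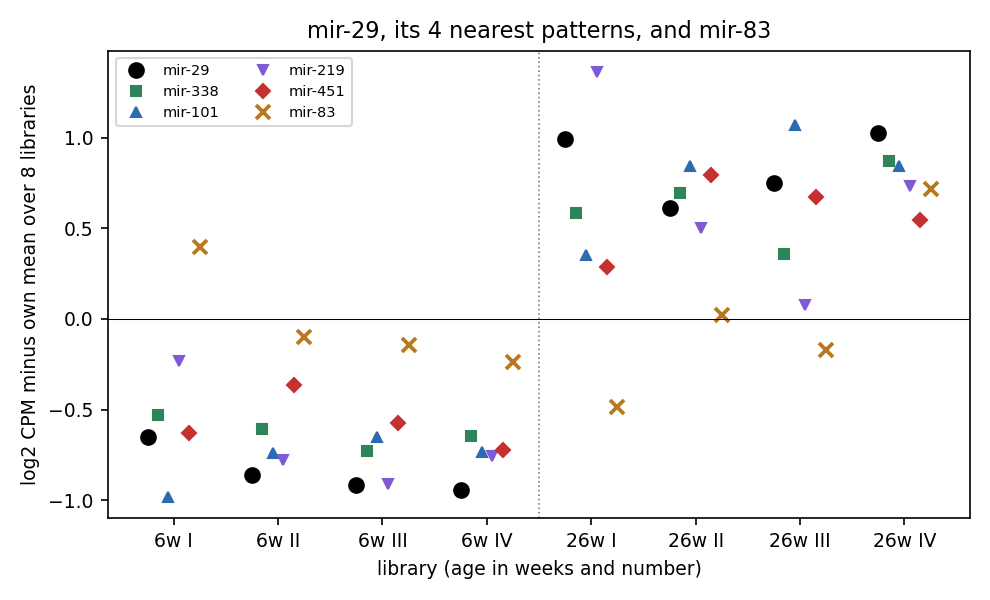
Log2 CPM minus the feature's own mean over the 8 libraries (vertical) in each library (horizontal, age and number) for mir-29, for the 4 features nearest to it and for mir-83; points of a library are set side by side and the dotted line parts the ages. The points of mir-29 and of its 4 nearest features lie below 0 in the 6-week libraries and above 0 in the 26-week ones, and those of mir-83 lie on both sides at each age.

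Of the features compared with mir-83, the nearest were mir-149 at 0.22, mir-576 at 0.24, mir-218 at 0.25 and mir-129 at 0.27, against a median of 0.53 over 211 features. Among these, mir-149 and mir-576 were scarce too, at 3.68 to 7.75 CPM and 7.10 to 12.9 CPM, so that counting error adds to their patterns. Leaving out the 6-week library I kept 1 of these 4.

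Lists of families with known roles near those of miR-29 in mammals were set beside it. The lists were chosen with earlier results of these data known, so their shares of called families are descriptions and were not tested. Of 11 other tested families of the DNA methylation list, whose targets include methyltransferases or TET enzymes, 5 rose and 1 fell, with a median log2 change of 0.54. Over all tested features 10.4% were called higher and 3.77% lower, with a median log2 change of -0.06. The 11 families each averaged above 100 CPM at both ages, and the median over tested features of at least 100 CPM was 0.12. Among the 5 were mir-132 and mir-132b, which may share reads. The risers included mir-101 (1.57 ± 0.16, SE, adjusted p = 3.00e-04), mir-22, known to act on TET transcripts (0.74 ± 0.13, adjusted p = 0.0109), and mir-132, an activity-responsive neuronal family (0.70 ± 0.14, adjusted p = 0.0126; edgeR, Benjamini-Hochberg). The others, named after their values were seen, were mir-132b, mir-26, which like mir-101 acts on Ezh2 (0.60 ± 0.13, SE), and the falling mir-217 (-0.73 ± 0.18). The count of called families was 3 with upper-quartile factors and 1 with the log2 total as a covariate. Of all tested features, these fits called 12.3% and 1.89%. Neither mir-132 (edgeR, Benjamini-Hochberg adjusted p = 0.0545 and 0.102) nor mir-26 (adjusted p = 0.0622 and 0.184) was called in them. The call of mir-22 was lost with the covariate, and that of mir-217 was lost with it, with no filter and when library II or III of either age was left out (edgeR, Benjamini-Hochberg adjusted p up to 0.115).

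In the extracellular matrix list, 3 of 13 other tested families rose, against 10.4% of all tested features, and the rest did not pass. The risers were mir-101, mir-132 and mir-132b (0.54 ± 0.12, SE, edgeR, Benjamini-Hochberg adjusted p = 0.0167), and the last 2 may share reads. The median log2 change of the 13 was 0.23, against -0.06 over all tested features and 0.12 over those of at least 100 CPM. With upper-quartile factors and with the log2 total as a covariate, 1 of the 13 was called, against 12.3% and 1.89% of all tested features. In these fits mir-132b was not called (edgeR, Benjamini-Hochberg adjusted p = 0.0961 and 0.189). In the iron handling list, mir-29 was the one called family. By edgeR with TMM and the expression filter, 0 of the 7 others were called and 2 had an unadjusted p under 0.05, while DESeq2 and limma-voom called 1 each. The count was 1 or 2 in 11 of 19 alternatives, among them edgeR with RLE factors (mir-145, Benjamini-Hochberg adjusted p = 0.0369), with TMM factors computed without the 5 most abundant features (0.0358) and with no filter (0.0489). The median log2 change of the 7 was 0.44, against -0.06 over all tested features and 0.12 over those of at least 100 CPM. Of all tested features, 14.2% were called in either direction. Both with an unadjusted p under 0.05, named after their values were seen, were called with the library number as a block, mir-145 of vessel wall muscle (0.58, edgeR, Benjamini-Hochberg adjusted p = 0.0287, and 0.0587 without the block) and let-7 of developmental timing (0.58, adjusted p = 0.0125, and 0.0889 without the block). Leaving out 1 library also brought a call of mir-145 (the 26-week II or III) or of let-7 (the 6-week III or the 26-week I). The adjusted p of these calls ran from 0.0128 to 0.0448 (edgeR, Benjamini-Hochberg). The same fits called 12% to 21.3% of all tested features.

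**Figure D5:**
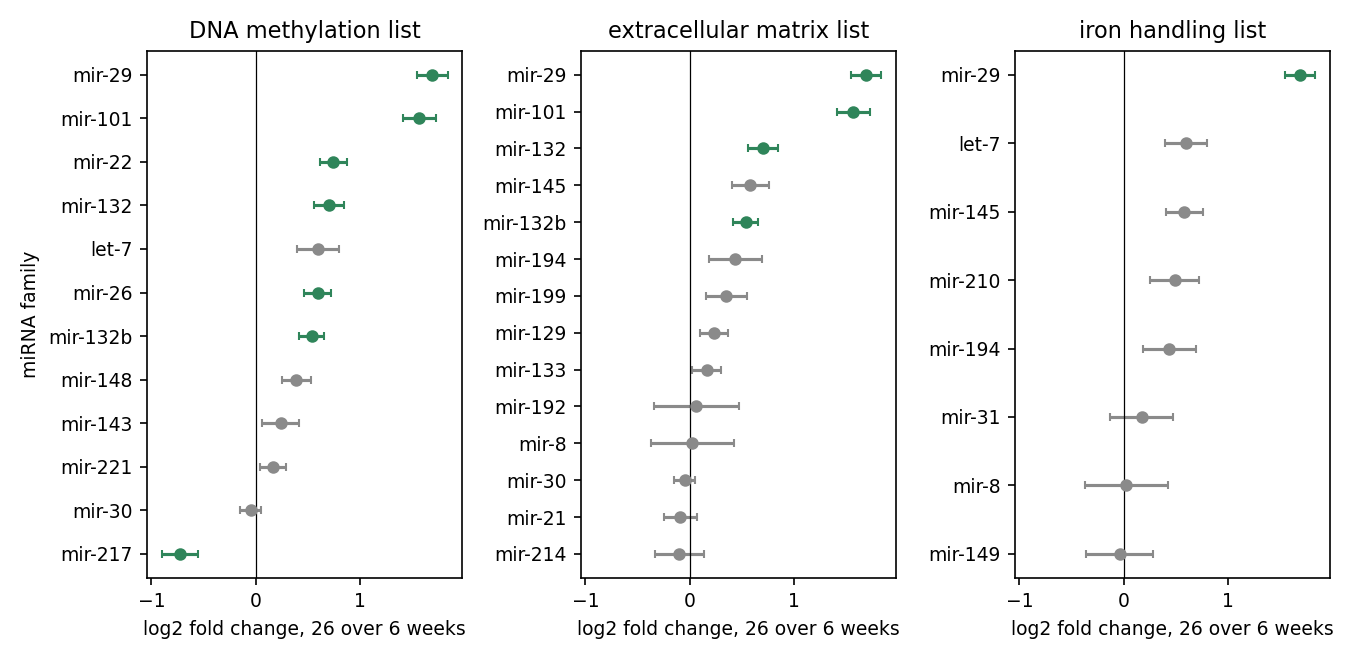
Log2 fold change with age (26 over 6 weeks, horizontal, bars are SE) of each tested family of the DNA methylation, extracellular matrix and iron handling lists; green points passed an adjusted p of 0.05 and grey ones did not. In each list mir-29, at 1.69, stands at the top, next to mir-101 at 1.57 in the first and second lists.

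Bulk tissue holds many cell types, and in such samples more cells of a type and more RNA per cell cannot be told apart. The counts of called families below stand beside 10.4% of all tested features called higher and 3.77% called lower, and were not tested. Summed over marker families, the level of the 2 oligodendrocyte families was 8817 to 10347 CPM in younger and 18661 to 26728 CPM in older libraries, and 2 of 2 rose. The 5 microglia and leucocyte families summed to 471 to 565 CPM and to 487 to 909 CPM, and 3 of 5 rose (mir-142, mir-150 and mir-223). The 2 erythroid families summed to 754 to 973 CPM and to 1152 to 1311 CPM, and 1 of 2 rose (mir-451). The neuronal features summed to 157066 to 176628 CPM and to 168629 to 180077 CPM, and 3 of 7 rose (mir-124, mir-132 and mir-132b).

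The 3 families of endothelium and vessel wall summed to 9022 to 13193 CPM in younger and to 10663 to 18556 CPM in older libraries. Of them 0 were called by edgeR with TMM and the expression filter, 2 had an unadjusted p under 0.05, and DESeq2 and limma-voom called 1 each (mir-145). As given for the iron handling list, mir-145 was also called by edgeR with RLE factors, with TMM factors without the 5 most abundant, with no filter and with the block. The 3 muscle families summed to 1107 to 1319 CPM and to 1175 to 1604 CPM, and mir-122 of liver stood at 16.6 to 25.5 CPM and at 9.95 to 23.1 CPM. A separate feature outside the liver list, mir-122a/mir-3591, averaged 32.3 CPM at 6 weeks and 17.8 CPM at 26 weeks. Its log2 change of -0.86 was not called. In the muscle and liver lists 0 were called by edgeR with TMM and the filter, 0 had an unadjusted p under 0.05, and DESeq2 and limma-voom called 0. The muscle family mir-206 was not analysed here, and 0 of the marker families in the table were at 0 in all libraries.

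Relative to these sums, mir-29 was higher at 26 weeks in every case. This follows from the folds of the mean CPM, 3.23 for mir-29 and 0.754 to 2.41 for the sums, and is a description. The sums mostly follow their most abundant families. At 6 weeks mir-338 averaged 8954 of the 9531 CPM of the oligodendrocyte sum. In the neuronal sum of 165111 CPM, mir-9 and mir-128 averaged 69261 and 61786 CPM. In the microglia and leucocyte sum of 517 CPM, mir-146, which was not called, averaged 260 CPM. Relative to mir-219 alone, the ages overlapped, as given above. The mean ratio of mir-29 to the oligodendrocyte sum was 1.35 times that at 6 weeks, and its lowest older value (0.0742) lay above its highest younger value (0.0708). The ratio to the neuronal sum was 3.06 times, to the microglia and leucocyte sum 2.46 times, to the erythroid sum 2.15 times and to the endothelium and vessel wall sum 2.49 times its level at 6 weeks. The part of these cell types in the rise of mir-29 was not tested. Depth moved with age as well. With the log2 of the total as a covariate, the log2 change of mir-29 was 1.89 ± 0.17 (SE, edgeR, Benjamini-Hochberg adjusted p = 4.86e-04), in a fit that called 4 features in all.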

How the data were processed

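Small RNA libraries were prepared from total brain RNA with Illumina's TruSeq small RNA chemistry, per the labels' protocols. The submitters' processing notes name BWA 0.7.12-r1039, SAMtools 1.3.1-9, Trimmomatic 0.36 and bcl2fastq 1.8.4. The authors deposited whole-number counts per family or predicted miRNA, without arms or normalisation. Build, annotation, counting tool and the handling of multiply mapping reads are not given in the sources used, so reads could be split between related features.

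Counts were fitted in R 4.3.3 with edgeR 4.0.16 (TMM, filterByExpr, glmQLFit, no covariate, all 8 libraries). The same fit was run on simulated counts drawn without the pairing of libraries by number, so that run does not cover the pairing. The filter left out 112 features holding 0.00948% of the counts, and both members passed it. SE is the absolute log2 change divided by the root of F. Log2 CPM used a prior count of 2, and the ratio added 0.5 to each count. DESeq2 1.42.0 and limma 3.58.1 (voom), other scalings and filters, the log2 total as a covariate and left-out libraries were alternatives.

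The members and lists were chosen with earlier results of these data known. Named features are the members, the 4 nearest patterns of each, and from each list at most 4 called families by smallest p; mir-49 was the best of the seed list's others, and mir-430 was named after its values were seen. Deviations from the age means correlated by 0.287 to 0.528 between libraries of the same number across features (at most 0.234 between different numbers), so the numbers pair the libraries, though the labels do not say what they stand for. No libraries of an age were near copies, with at least 137 chi-square per degree of freedom.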

Additional observations from a re-analysis of the deposited data

How the results depend on the processing

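The rise of mir-29 kept its direction and its call in 20 of 20 alternatives, with log2 changes from 1.48 (total counts) to 1.89 and adjusted p up to 0.00342; leaving out 1 library gave 1.64 to 1.89. The change of mir-83 passed in 0 of 19 alternatives, with adjusted p from 0.3603 up. It turned negative with upper-quartile factors (-0.10) and total counts (-0.17), and without 1 library it ran from -0.15 to 0.26. The replicate block gave 1.69 for mir-29 and 0.05 for mir-83 and changed neither call. The fall of the ratio of mir-83 to mir-29 ran from -1.82 to -1.43 without 1 library. It missed the threshold where the smallest possible p was above it, without both libraries numbered I (-1.35) and with the replicate block (-1.65). The number of features called, 30 as reported, was 59 with the replicate block (35 higher, 24 lower), 50 with neither library I (30 higher, 20 lower) and 4 with the log2 total as a covariate (all higher). It ran from 23 to 47 without 1 library, the highest being without the 26-week library I (29 higher, 18 lower). The split of 22 higher and 8 lower became 15 and 12 with total counts and 15 and 11 with upper-quartile factors, where the median log2 change of all features moved from -0.06 to -0.29 and -0.24; the log2 change of mir-29 stood above each of these medians. Of 4 other features like mir-29, mir-219 lost its call with total counts (adjusted p = 0.0579) and mir-451 with the log2 total as a covariate (adjusted p = 0.0654). The causes were not tested.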

Other observations

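At 26 weeks the deposited counts of mir-29 were nearly equal between libraries, whose totals were not. The counts ran from 8516 to 9214, a span of 1.08-fold, while totals spanned 1.71-fold; at 6 weeks the spans were 1.32-fold and 1.39-fold. As a result mir-29 took 0.254% of the counts in the 26-week library I, which had the lowest total of its age, and 0.151% in library II, which had the highest. After TMM scaling the 26-week span was 1.33-fold.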
